A study of Mus musculus with 5 samples.

Results

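The Toll-like receptors are membrane proteins of innate immunity that bind molecules from microbes and, for several of them, molecules released by injured tissue. The 10 receptor genes described here, Tlr1 to Tlr9 and Tlr13, were picked by gene symbol, with earlier results of these data known. They were 10 of the 55573 genes counted, and all 10 had enough counts to be among the 23592 genes tested. The libraries were bulk RNA from the right hemisphere of C57BL/6 female mice, which had been inoculated with GL261 glioma cells carrying luciferase and mKate2 in the right caudate nucleus-putamen at 7 to 8 weeks of age. The comparison asked what ultrasound-mediated blood-brain barrier opening (UMBO), low-intensity pulsed ultrasound given with intravenous SonoVue microbubbles, does to transcripts in the tumor-bearing hemisphere. Sessions took place on days 21 and 24, and the hemisphere was collected 24 h after the last one. The vehicle group (3 libraries, 1 mouse each) received inVivoPure pH 6.5 dilution buffer, and the UMBO group (2 libraries, 1 mouse each) received UMBO. The study describes isoflurane anesthesia in its treatment protocols, and whether vehicle mice also received microbubbles is not given in the sources used here. All mice carried the tumor, so no library shows the receptors in a brain without one.

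Toll-like receptors work as dimers with a leucine-rich ectodomain that meets the ligand and a cytoplasmic TIR domain that recruits adaptor proteins. Tlr1, Tlr2, Tlr4, Tlr5 and Tlr6 are described as sitting at the cell surface, where they meet lipopeptides, lipopolysaccharide and flagellin. Tlr3, Tlr7, Tlr8, Tlr9 and Tlr13 are described as sitting in endosomes, where they meet nucleic acids. Most of them signal through Myd88 to NF-kappa-B, Tlr3 signals through Ticam1 (also called Trif) and Tlr4 uses both. In the brain, microglia are the cells best known for carrying these receptors, and monocytes, macrophages and neutrophils that enter from the blood carry them too.

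The promoters of 3 members are given first, because these genes stand for the 3 patterns described later. Tlr2 had the largest difference between the groups, Tlr13 was the endosomal receptor with the largest, and Tlr9 was an endosomal receptor whose groups overlapped. Each window runs from 250 bases before to 50 bases after the start of a RefSeq transcript on the GRCm38.p6 assembly, and capitals mark letters that match a searched motif. The Tlr2 window is chr3:83841559-83841858 on the reverse strand, the Tlr13 window chrX:106143025-106143324 on the forward strand and the Tlr9 window chr9:106222348-106222647 on the forward strand.
Tlr2: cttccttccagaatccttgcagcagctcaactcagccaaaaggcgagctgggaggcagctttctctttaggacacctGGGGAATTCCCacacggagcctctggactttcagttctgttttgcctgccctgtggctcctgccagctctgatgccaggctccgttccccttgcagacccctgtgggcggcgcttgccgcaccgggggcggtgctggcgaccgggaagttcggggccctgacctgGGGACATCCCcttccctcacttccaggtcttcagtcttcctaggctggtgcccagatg
Tlr13: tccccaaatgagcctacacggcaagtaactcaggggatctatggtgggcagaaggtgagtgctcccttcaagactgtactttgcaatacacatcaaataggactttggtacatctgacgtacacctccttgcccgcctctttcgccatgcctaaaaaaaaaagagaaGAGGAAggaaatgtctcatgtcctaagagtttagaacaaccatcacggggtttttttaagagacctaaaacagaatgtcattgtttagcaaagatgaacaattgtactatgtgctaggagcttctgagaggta
Tlr9: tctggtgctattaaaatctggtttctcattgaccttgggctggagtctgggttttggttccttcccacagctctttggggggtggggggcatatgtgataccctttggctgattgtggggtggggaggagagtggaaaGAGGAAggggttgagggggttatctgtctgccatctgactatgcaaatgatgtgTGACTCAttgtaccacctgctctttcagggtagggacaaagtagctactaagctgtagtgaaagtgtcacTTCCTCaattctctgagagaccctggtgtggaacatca

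The motifs were searched on both strands in the RefSeq windows, which were found for 8 of the 10 members (all but Tlr4 and Tlr7). In the Tlr2 window the capitals mark matches to the NF-kappa-B consensus, which was held by 8.46% of all 32851 windows of 300 bases and by 2 of the 10 windows of members, those of Tlr2 and Tlr3. In the Tlr13 and Tlr9 windows they mark GAGGAA, the core bound by PU.1, the master transcription factor of the myeloid lineage. That core was in 4 of the 10 windows of members (1 each of Tlr1, Tlr8, Tlr9 and Tlr13) and in 28.3% of all windows. The Tlr9 window also held TGACTCA, the AP-1 site, found in 5.2% of windows. GAAANNGAA, a repeat of the interferon response element, was in 1 window each of Tlr6 and Tlr8 and in 8.56% of all windows. The PU.1 core did not follow the groups of members described below. It was in Tlr1 and Tlr13, which were higher with UMBO, and in Tlr8 and Tlr9, whose groups overlapped. The interferon repeat was likewise split between Tlr6, which was higher, and Tlr8. The NF-kappa-B consensus was found only in members without overlap (Tlr2 and Tlr3), and the AP-1 site only in Tlr9. Whether any motif goes with the differences was not tested.

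Libraries held 59736771 to 86164159 counts, and no gene of the whole table passed the adjusted p of 0.05 used as the threshold. UMBO replicate 2 stood apart from the other libraries. Its summed proliferation genes were at 480 CPM (counts scaled to a common library size), against 36.3 to 111 CPM in the vehicle libraries and 115 CPM in UMBO replicate 1. Its summed neuron markers were at 2601 CPM, where the other 4 libraries lay between 5241 and 8067 CPM. Oligodendrocyte markers, at 5270 to 6127 CPM in sum, marked all 5 libraries as brain tissue. The summed markers of microglia and of neutrophils also moved with the groups, whereas those of monocytes and infiltrating macrophages overlapped between them. The summed CPM of 10 microglia markers was 354 to 508 with vehicle and 687 to 824 with UMBO, with both UMBO libraries above every vehicle library for 7 of the 10. For 10 markers of monocytes and infiltrating macrophages it was 87.1 to 210 with vehicle, 176 in UMBO replicate 1 and 686 in UMBO replicate 2. Neutrophil markers summed to 9.68 to 17.1 CPM with vehicle and 22.5 to 30.9 CPM with UMBO, and most of this was Csf3r (9.04 to 14.8 CPM with vehicle, 21.1 and 24.1 CPM with UMBO). Of these 10 neutrophil genes 6 were under 1 CPM in every library, and the defining genes Cxcr2, Ly6g, Mmp8 and Camp were at or near 0. Endothelial markers summed to 148 to 205 CPM with vehicle and 226 to 248 CPM with UMBO, but not all of them moved. Both UMBO libraries were above every vehicle library for 3 of the 6. Slco1a4 was at 25.1 CPM in UMBO replicate 2, below its vehicle range of 42.3 to 56.9 CPM. Gfap, the astrocyte gene raised in reactive astrocytes and named after its values were seen, was also higher. It was at 214 to 515 CPM with vehicle and 1396 and 1636 CPM with UMBO. The 6 astrocyte markers that include Gfap did not move as a class, with 3 higher and 3 lower. Their median log2 fold change was 0.096, and they summed to 3224 to 4490 CPM with vehicle and 3067 to 5085 CPM with UMBO. In bulk tissue, fewer or more cells of a type and less or more RNA per cell cannot be told apart. The part of these cell types in the receptor levels was not tested, apart from the comparison with a myeloid panel given below.

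Of the 10 receptors, 8 were higher with UMBO and 2 were lower, where 50.9% of all genes tested were higher. The median log2 fold change of the receptors was 0.84, against 0.01 over all genes tested. Tlr2, Tlr7, Tlr13, Tlr1 and Tlr6 had an unadjusted p under 0.05, all of them higher. Of all genes tested, 5.3% had such a p and were higher, and 2.06% had one and were lower. With Benjamini-Hochberg adjustment of the quasi-likelihood test in edgeR, no member passed the threshold, and neither did any other gene (0%). The DESeq2 Wald test called 1 member, Tlr2, where it called 0.121% of genes higher. For 7 of the 10 receptors both UMBO libraries exceeded all vehicle libraries, a pattern shown by 11.5% of all genes tested. Of these 7 receptors, 6 (all but Tlr3) had the libraries in one common order, from vehicle replicate 1 through vehicle replicates 3 and 2 to UMBO replicates 1 and 2. That order was noticed after the values were seen, and 4.23% of all genes showed it.

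**Figure D1:**
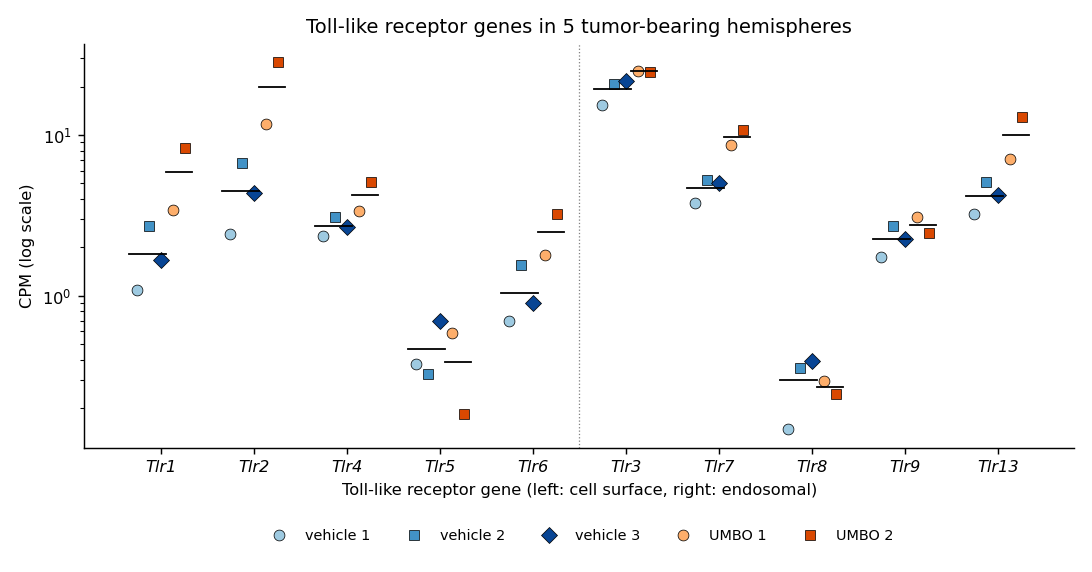
CPM of each receptor gene (log axis) in the 3 vehicle libraries (blue) and the 2 UMBO libraries (orange), with a line at each group's mean. Tlr2 and Tlr1 lie furthest apart between the groups, Tlr3 is the most abundant gene in every vehicle library, and the groups overlap for Tlr5, Tlr8 and Tlr9.

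Tlr2, the shared partner in the surface receptors for bacterial lipopeptides, had the largest difference of the family. Its gene (ENSMUSG00000027995) spans 83836272 to 83841767 on the reverse strand of chromosome 3 and has the NF-kappa-B matches shown above. It was at 2.43, 6.68 and 4.35 CPM in vehicle replicates 1 to 3 and at 11.7 and 28.3 CPM in UMBO replicates 1 and 2. Both UMBO libraries were thus above every vehicle library, and the lower UMBO value was also well above the highest vehicle value. The difference was 4.46-fold, or 2.16 on the log2 scale (standard error 0.53). The quasi-likelihood test gave an unadjusted p of 0.00671, which became 0.497 after adjustment over all genes. The DESeq2 Wald test gave an adjusted p of 0.0484. In the 5 fits that each dropped 1 library, the log2 fold change was between 1.38 (without UMBO replicate 2) and 2.63 (without UMBO replicate 1), and the unadjusted p was under 0.05 in each.

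Tlr1 and Tlr6 pair with Tlr2, Tlr1 for triacylated and Tlr6 for diacylated lipopeptides. They lie next to each other on the reverse strand of chromosome 5, Tlr1 (ENSMUSG00000044827) at 64924679 to 64933563 and Tlr6 (ENSMUSG00000051498) at 64952031 to 64960097. Tlr1 was at 1.08, 2.71 and 1.68 CPM with vehicle and at 3.42 and 8.31 CPM with UMBO. Tlr6 was lower, at 0.695, 1.54 and 0.898 CPM with vehicle and 1.78 and 3.21 CPM with UMBO. For both genes the UMBO libraries were above the vehicle libraries, but UMBO replicate 1 lay close to vehicle replicate 2. On the log2 scale the difference was 1.68 (standard error 0.54, unadjusted p = 0.0200) for Tlr1 and 1.25 (standard error 0.47, unadjusted p = 0.0370) for Tlr6, each with an adjusted p of 0.497 in edgeR. Without UMBO replicate 2 these values dropped to 0.90 (unadjusted p = 0.120) for Tlr1 and 0.77 (unadjusted p = 0.178) for Tlr6 in the edgeR fit. The coding sequences are alike in part, and 7.89% of the 100-base stretches of Tlr1 and 7.09% of those of Tlr6 occur in the other gene, so a small share of their reads cannot be assigned between them.

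The balance between Tlr2 and its partners also differed. The log2 ratio of Tlr2 over Tlr1 was 1.15, 1.29 and 1.36 with vehicle and 1.77 in both UMBO mice, a difference of 0.50. The ratio over Tlr6 was 1.77, 2.09 and 2.24 with vehicle and 2.7 and 3.13 with UMBO, a difference of 0.88. Between the partners, the log2 ratio of Tlr1 over Tlr6 was 0.62, 0.80 and 0.88 with vehicle and 0.93 and 1.37 with UMBO, a difference of 0.38 (0.16 without UMBO replicate 2 and 0.60 without UMBO replicate 1). In each of these 3 ratios the UMBO libraries lay above every vehicle library, and the 2-sided exact permutation test gave p = 0.1, the smallest that 10 groupings of 5 libraries allow. The log2 ratio of Tlr2 over Tlr6 is the sum of those of Tlr2 over Tlr1 and Tlr1 over Tlr6. Its separation therefore follows from theirs and is not a further result. In all, 5 partner ratios were computed, and the adjustment over them cannot bring any p under 0.1.

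Tlr4, the lipopolysaccharide receptor, differed less than the Tlr2 group. The gene (ENSMUSG00000039005) covers 66827584 to 66930284 on chromosome 4. It was at 2.34, 3.10 and 2.69 CPM with vehicle and at 3.36 and 5.07 CPM with UMBO. The groups did not overlap, although UMBO replicate 1 was only just above vehicle replicate 2, and the log2 fold change of 0.64 (standard error 0.31) had an unadjusted p of 0.0873 in edgeR. It was 0.31 when UMBO replicate 2 was left out (edgeR, unadjusted p = 0.419). The log2 ratio of Tlr4 over Ly96, which encodes the MD-2 protein that holds the lipopolysaccharide, differed by -0.15 between the groups (exact permutation test, p = 0.5). Tlr5 (ENSMUSG00000079164, chromosome 1, 182954788 to 182976044), the flagellin receptor, was near the detection limit with 12 to 59 counts per library. It was at 0.374, 0.326 and 0.697 CPM with vehicle and 0.585 and 0.183 CPM with UMBO, so the groups overlapped. Its log2 fold change of -0.27 had a standard error of 0.62 (edgeR, unadjusted p = 0.682), and its sign turned when vehicle replicate 3 (0.14) or UMBO replicate 2 (0.32) was left out.

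**Figure D2:**
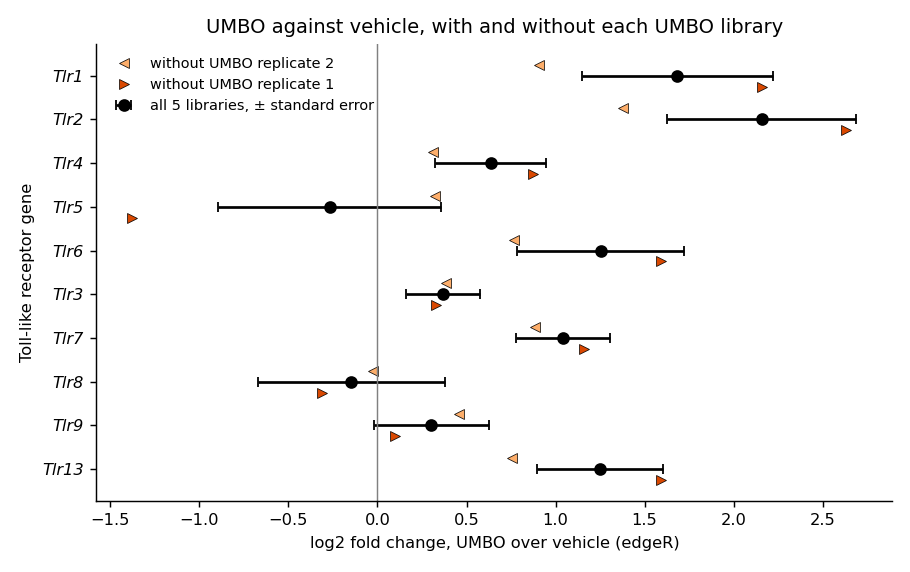
Log2 fold change of each receptor gene, UMBO over vehicle, in edgeR with all 5 libraries (black, ± standard error) and with either UMBO library left out (triangles). Tlr2 stays above 1.3 in all 3 fits, Tlr7 stays between 0.88 and 1.16, and Tlr5 changes sign.

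Among the endosomal receptors, Tlr7 and Tlr13 were higher with UMBO while Tlr3, Tlr8 and Tlr9 differed by less than 0.4 on the log2 scale. Tlr7, a sensor of single-stranded RNA, lies on the X chromosome (ENSMUSG00000044583, 167304929 to 167330558, reverse strand). It was at 3.76, 5.28 and 5.03 CPM with vehicle and at 8.65 and 10.7 CPM with UMBO. Both groups were tight and well apart, and the difference was 1.04 on the log2 scale (standard error 0.26; edgeR, unadjusted p = 0.00741, adjusted p = 0.497). Unlike for Tlr1 and Tlr6, the unadjusted p stayed under 0.05 in all 5 fits that each left out 1 library, and the log2 fold change ranged from 0.88 to 1.16. Tlr13, which recognizes bacterial ribosomal RNA in mice, is also on the X chromosome (ENSMUSG00000033777, 106143204 to 106160493). It was at 3.22, 5.12 and 4.24 CPM with vehicle and at 7.09 and 12.9 CPM with UMBO, again without overlap. The log2 fold change was 1.25 (standard error 0.35, unadjusted p = 0.0122, adjusted p = 0.497 in edgeR). Without UMBO replicate 2 it was 0.76, with an edgeR p of 0.0671.

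Tlr3, the sensor of double-stranded RNA, had the highest CPM of the family in every vehicle library. It was at 15.4, 20.9 and 21.6 CPM with vehicle and at 25.2 and 24.7 CPM with UMBO. Both UMBO libraries lay above the vehicle libraries, yet the log2 fold change was only 0.37 (standard error 0.21, edgeR unadjusted p = 0.126), and 0.23 without vehicle replicate 1. The gene (ENSMUSG00000031639, chromosome 8, 45395665 to 45411080, reverse strand) is overlapped by the antisense gene Gm45542, which shares 3.32% of its 100-base stretches. Gm45542 had 0 to 4 counts per library, and whether the counting used strand is not given in the sources used here. In contrast to the Tlr2 group, UMBO replicate 2 was not the highest library for Tlr3.

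Tlr9, the receptor for unmethylated CpG DNA, was at 1.74, 2.71 and 2.27 CPM with vehicle and at 3.08 and 2.44 CPM with UMBO. UMBO replicate 2 lay within the vehicle range, and the log2 fold change was 0.30 (standard error 0.32, edgeR unadjusted p = 0.387). It was 0.097 without UMBO replicate 1 and 0.49 without vehicle replicate 2. Its gene (ENSMUSG00000045322) is at 106222598 to 106226883 on chromosome 9. Tlr8, the neighbor of Tlr7 on the X chromosome (ENSMUSG00000040522, 167242696 to 167264329, reverse strand) and a sensor of RNA breakdown products in humans, had only 11 to 33 counts per library. It was at 0.147, 0.356 and 0.390 CPM with vehicle and at 0.292 and 0.244 CPM with UMBO, so both UMBO libraries lay inside the vehicle range. Its log2 fold change of -0.15 (standard error 0.53, edgeR unadjusted p = 0.790) turned positive without vehicle replicate 2 (0.017) or vehicle replicate 3 (0.10). The log2 ratio of Tlr7 over Tlr8 was 4.45, 3.79 and 3.60 with vehicle and 4.77 and 5.31 with UMBO, a difference of 1.09 (exact permutation test, p = 0.2).

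UMBO replicate 2 shaped the size of these differences more than UMBO replicate 1. The median over the 10 receptors of the log2 level, relative to the vehicle mean, was -0.34, 0.30 and 0.06 in vehicle replicates 1 to 3, 0.63 in UMBO replicate 1 and 1.05 in UMBO replicate 2. Without UMBO replicate 1, 4 members (Tlr1, Tlr2, Tlr7 and Tlr13) passed an adjusted p of 0.05 in edgeR, where 10.1% of all genes tested passed and were higher. Without UMBO replicate 2, none passed, and only Tlr2 (unadjusted p = 0.0238) and Tlr7 (unadjusted p = 0.0270) had an unadjusted p under 0.05 in edgeR, where 1.15% of genes had one and were higher. The other fits with 1 library left out gave 6 such members, all higher, without UMBO replicate 1 (21.4% of all genes), and 3, 5 and 3 when vehicle replicates 1 to 3 were dropped in turn (0.838%, 9.36% and 0.945% of all genes). Each fit without a UMBO library has 1 UMBO library, which is assumed to vary like the vehicle libraries.

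To compare levels between genes, CPM was divided by exonic length in kb. With vehicle, Tlr3 ranked first at 3.70 ± 0.65 CPM per kb (SD, n = 3), followed by Tlr2 at 1.49 ± 0.70, Tlr7 at 1.15 ± 0.20 and Tlr13 at 0.974 ± 0.220. Tlr9 (0.644 ± 0.141), Tlr1 (0.545 ± 0.247) and Tlr4 (0.488 ± 0.0685) came next, then Tlr6 (0.280 ± 0.119), and Tlr5 and Tlr8 were under 0.1 CPM per kb. Neighbors in this order had separate vehicle ranges only after Tlr3, after Tlr4 and after Tlr6, so the genes from Tlr2 to Tlr4 form a run in which no neighbors were apart. With UMBO, Tlr2 ranked first at 6.63 ± 3.90 CPM per kb (SD, n = 2), ahead of Tlr3 at 4.78 ± 0.0650, with Tlr7 at 2.37 ± 0.354 and Tlr13 at 2.32 ± 0.950 after them. The change at the top was in UMBO replicate 2 alone, since in UMBO replicate 1 Tlr3 made up 30.8% of the summed receptor level and Tlr2 24.7%.

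The summed level of the 10 receptors was 6.99, 11.4 and 9.93 CPM per kb with vehicle and 15.7 and 24.8 CPM per kb with UMBO. The 5 surface receptors made up 26.0%, 35.5% and 28.3% of it with vehicle and 38.9% and 55.2% with UMBO. The share of Tlr2 was 11.6%, 19.4% and 14.5% with vehicle and 24.7% and 37.9% with UMBO, and the share of Tlr3 was 42.4%, 35.1% and 41.7% with vehicle and 30.8% and 19.1% with UMBO. These shares describe the mixture of transcripts in the whole hemisphere and rest on the most abundant genes. In log2 fold change the surface receptors had a median of 1.25 and the endosomal receptors a median of 0.37. With UMBO replicate 2 left out these medians were 0.77 and 0.46, so that library held much of the gap.

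**Figure D3:**
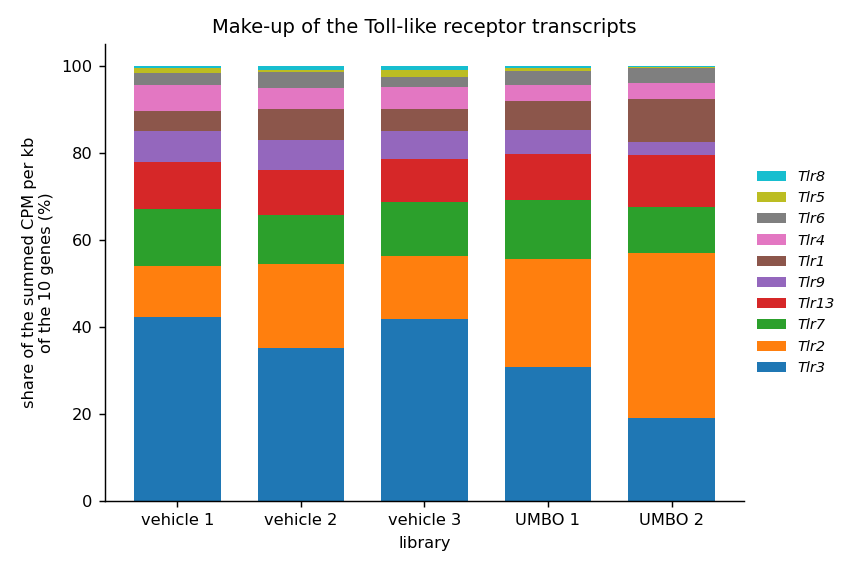
Share of each receptor gene in the summed CPM per kb of the 10 genes, one bar per library. Tlr3 (blue) takes 35.1% to 42.4% in the vehicle libraries and 19.1% to 30.8% in the UMBO libraries, and Tlr2 (orange) takes 11.6% to 19.4% and 24.7% to 37.9%.

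Genes that most myeloid cells carry also differed between the libraries, so each receptor was set against a panel of 10 such genes (Csf1r, Aif1, Itgam, Cd68, Tyrobp, Fcer1g, Spi1, Laptm5, Ptprc and Cd53). The mean log2 level of the panel, relative to the vehicle mean, was -0.56, 0.68 and -0.12 with vehicle and 0.76 and 1.99 with UMBO. Its difference of 1.37 had an exact permutation p of 0.2, and UMBO replicate 1 was close to vehicle replicate 2. The panel thus ordered the libraries as 6 of the receptors did. Relative to the panel, 2 receptors were higher and 8 lower with UMBO. A gene with equal levels in both groups falls by 1.37 on this scale. Before the panel was taken off, the typical gene tested had moved by only 0.01 (median, log2). The count of 8 lower receptors therefore does not by itself set them apart from other genes.

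Tlr2 exceeded the panel. Its log2 level over the panel, relative to the vehicle mean, was -0.20, 0.01 and 0.20 with vehicle and 0.73 and 0.78 with UMBO, a difference of 0.76 that was nearly equal in the 2 UMBO mice (exact permutation test, p = 0.1, the smallest possible). Tlr1 lay at -0.08, -0.02 and 0.10 with vehicle and at 0.24 and 0.28 with UMBO, a difference of 0.26 (exact permutation test, p = 0.1). Both UMBO libraries were above every vehicle library on this scale for these 2 members, as for 0.39% of all genes tested. Both were below every vehicle library for Tlr8 (difference -1.41), as for 52.2% of all genes. Adjustment over the 10 receptors cannot bring a p under 0.1. The difference for Tlr1 depended on the panel summary, with an exact permutation p of 0.7 when the panel's median was used (difference 0.10), whereas Tlr2 kept p = 0.1 (difference 0.60). With the 10 microglia markers as the panel, the difference was 1.54 for Tlr2 (exact permutation test, p = 0.1) and 1.04 for Tlr1 (p = 0.3).

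For the remaining receptors the mean difference between the groups was smaller than that of the panel. The difference relative to the panel was -0.12 for Tlr6, -0.17 for Tlr13 and -0.33 for Tlr7, with exact permutation p of 0.7, 0.6 and 0.5. For these 3 genes the sign turned when the microglia markers served as the panel, at 0.66, 0.62 and 0.46, and when UMBO replicate 2 was left out, at 0.07, 0.02 and 0.14. It was -0.76 for Tlr4, -0.99 for Tlr3, -1.06 for Tlr9 and -1.76 for Tlr5, with exact permutation p between 0.2 and 0.3. Without UMBO replicate 2 these 4 differences were -0.44, -0.36, -0.28 and -0.37, and that of Tlr8 was -0.68. With the microglia markers as the panel they were 0.02 for Tlr4, -0.20 for Tlr3, -0.28 for Tlr9, -0.97 for Tlr5 and -0.63 for Tlr8.

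**Figure D4:**
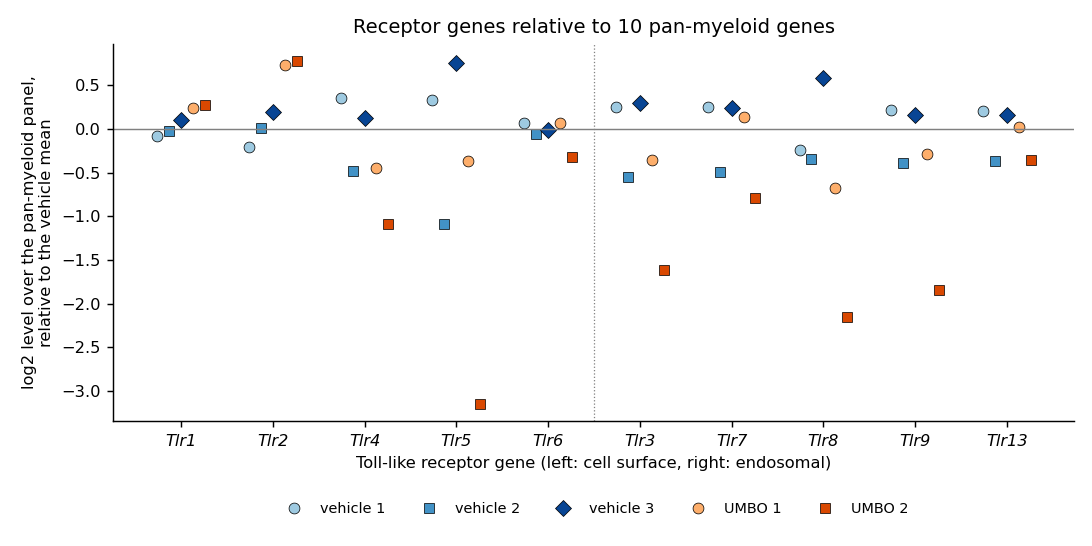
Log2 level of each receptor gene over the mean of 10 pan-myeloid genes, relative to the vehicle mean, in the 3 vehicle libraries (blue) and the 2 UMBO libraries (orange). Tlr2 lies at 0.73 and 0.78 in the UMBO libraries, above a vehicle range of -0.20 to 0.20, while UMBO replicate 2 falls below zero for all receptors but Tlr1 and Tlr2.

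The genes that serve these receptors were read from 9 lists with 76 genes in all, of which 74 were tested. Of these, 61 were higher and 13 lower with UMBO, where 50.9% of all genes tested were higher. In edgeR 15 of the 74 had an unadjusted p under 0.05 (all higher, against 5.3% of all genes tested), and none passed the adjusted p of 0.05. The median log2 fold change was 0.71 (0.13 without UMBO replicate 2), and for 23 of the 74 both UMBO libraries exceeded all vehicle libraries, against 11.5% of all genes. Every adjusted p was 0.497 or higher, so the values below are given with their unadjusted edgeR p. Without UMBO replicate 2, the list medians ran from -0.05 (induced genes) to 0.50 (co-receptors and ligand delivery), leaving aside the list of Tlr11 and Tlr12.

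At the cell surface, 5 of the 6 genes for co-receptors and ligand delivery were higher, the list's median was 1.26 on the log2 scale, and 3 of them had an unadjusted p under 0.05. Cd14, which hands lipopolysaccharide and lipopeptides to Tlr4 and Tlr2, was at 2.10, 4.61 and 2.43 CPM with vehicle and at 6.18 and 24.4 CPM with UMBO, a log2 fold change of 2.33 (edgeR unadjusted p = 0.0105). Cd180, a homolog of the Toll-like receptors, and its partner Ly86 had log2 fold changes of 1.37 (unadjusted p = 0.0229) and 1.65 (unadjusted p = 0.0488) in edgeR. Ly96 was at 0.83 (unadjusted p = 0.0978). UMBO replicate 2 held the highest value of these 4 genes, and without it the list's median was 0.50. For Ly86 and Ly96, UMBO replicate 1 lay inside the vehicle range.

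In the endosomal route, 8 of 9 genes for chaperones, trafficking and proteases were higher, with a median log2 fold change of 0.69, or 0.36 without UMBO replicate 2. Unc93b1, the chaperone that carries the nucleic acid receptors to endosomes, was at 16.8, 41.1 and 23.4 CPM with vehicle and at 43.1 and 87.0 CPM with UMBO (log2 fold change 1.26, edgeR unadjusted p = 0.0318). The 3 named genes for proteases that trim the receptors there were higher as well, Ctsl by 0.98 (unadjusted p = 0.0160), Lgmn by 1.09 (unadjusted p = 0.0478) and Ctsb by 0.69 (unadjusted p = 0.0731) on the log2 scale. Both UMBO libraries exceeded all vehicle libraries for Unc93b1, Ctsl and Ctsb but not for Lgmn.

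Of the 5 adaptors that bind the TIR domain, 4 were higher and 1 was lower. Ticam2, which links Tlr4 to Ticam1, was at 0.736, 1.29 and 0.791 CPM with vehicle and at 1.71 and 2.84 CPM with UMBO (log2 fold change 1.27, edgeR unadjusted p = 0.0212). Myd88, the adaptor of most receptors, was at 5.75, 10.6 and 7.02 CPM with vehicle and at 8.52 and 24.5 CPM with UMBO, so UMBO replicate 1 lay inside the vehicle range (log2 fold change 1.08, edgeR unadjusted p = 0.0696). Tirap, the bridge to Myd88 (0.77, unadjusted p = 0.0784), and Ticam1, the adaptor of Tlr3 (0.50, unadjusted p = 0.101), had both UMBO libraries above the vehicle libraries. Sarm1, best known in neurons, had a log2 fold change of -0.54 (edgeR unadjusted p = 0.226). Neuron markers were lowest in UMBO replicate 2, as was Sarm1 at 11.1 CPM, and their part in its value was not tested.

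The signalling kinases and ubiquitin ligases did not share a direction, with 7 genes higher, 7 lower and a median log2 fold change of 0.00. Irak4, the first kinase that Myd88 recruits, had 1.21 (edgeR unadjusted p = 0.0364), Ikbke 1.10 (unadjusted p = 0.0570), Tab1 0.62 (unadjusted p = 0.0939) and Tab3 -0.58 (unadjusted p = 0.0890). UMBO replicate 1 was inside the vehicle range for Ikbke, Tab1 and Tab3. All 7 genes for transcription factors were higher, with a median of 0.54 (0.18 without UMBO replicate 2), but none had an unadjusted p under 0.05. The smallest edgeR p values were those of Irf5 (1.34, unadjusted p = 0.0508), Irf3 (0.54, unadjusted p = 0.0654), Nfkb2 (1.26, unadjusted p = 0.0771) and Irf7 (1.68, unadjusted p = 0.0773). For Irf5, Nfkb2 and Irf7, UMBO replicate 1 lay inside the vehicle range. Of 10 negative regulators 8 were higher, with a median of 0.48 (0.14 without UMBO replicate 2). Nfkbia, the NF-kappa-B inhibitor that NF-kappa-B itself induces, had 1.10 (edgeR unadjusted p = 0.0323), Pik3ap1 1.09 (unadjusted p = 0.0438), Sigirr 1.60 (unadjusted p = 0.0569) and Dok3 0.40 (unadjusted p = 0.136). For Sigirr, too, UMBO replicate 1 lay inside the vehicle range.

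**Figure D5:**
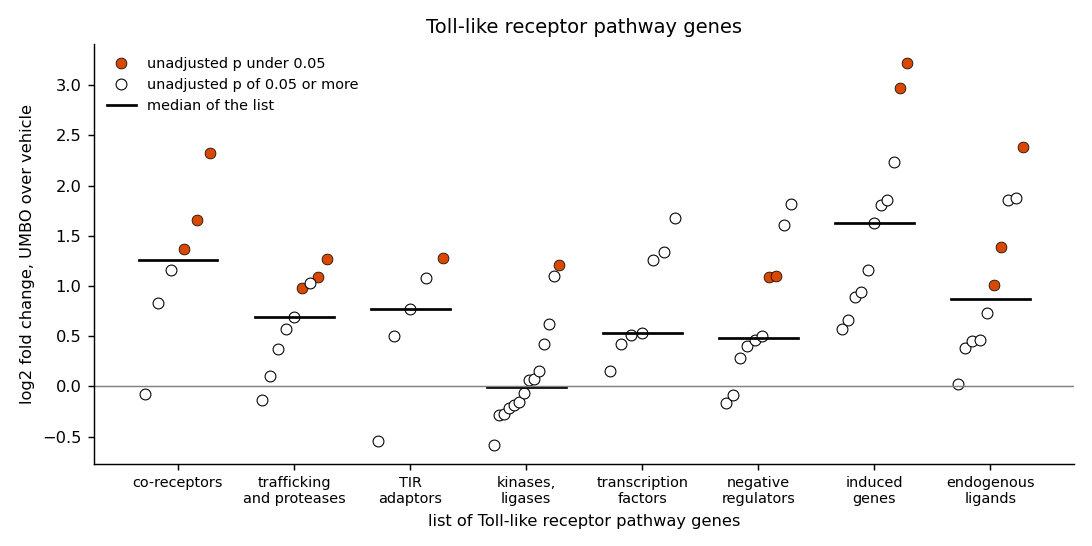
Log2 fold change, UMBO over vehicle, of the tested genes in 8 lists of the Toll-like receptor pathway (Tlr11 and Tlr12 are not drawn), with filled points for an unadjusted edgeR p under 0.05 and a bar at each list's median. The median is 1.63 for induced genes, 1.26 for co-receptors and 0.00 for kinases and ligases.

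The genes that these receptors are known to induce in myeloid cells had a median that turned on UMBO replicate 2. All 11 that were tested were higher (Ifnb1 and Cxcl2 had too few counts), with a median log2 fold change of 1.63, which was -0.05 without UMBO replicate 2. Among the tested genes of this list, only the chemokine gene Ccl3 had both UMBO libraries above the vehicle libraries. It was at 0.348, 1.14 and 0.378 CPM with vehicle and 2.12 and 7.65 CPM with UMBO (log2 fold change 2.97, edgeR unadjusted p = 0.00782). Il6 was at 0.0267, 0.237 and 0.130 CPM with vehicle, 0.222 CPM in UMBO replicate 1 and 2.24 CPM in UMBO replicate 2 (log2 fold change 3.22, edgeR unadjusted p = 0.0276), so UMBO replicate 1 was inside the vehicle range. Tnf (1.86, unadjusted p = 0.0828) and Acod1 (2.23, unadjusted p = 0.0939) also overlapped between the groups. Ptgs2, which encodes cyclooxygenase 2 and was named after its values were seen, had its highest value in UMBO replicate 1 (14.8 CPM), against 9.79 CPM in UMBO replicate 2 and at most 10.5 CPM with vehicle.

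Genes for endogenous proteins described as Toll-like receptor agonists were all higher (10 of 10, against 50.9% of all genes tested), Vcan by only 0.03 on the log2 scale. The median difference was 0.87 on that scale, or 0.30 without UMBO replicate 2. Both UMBO libraries exceeded all vehicle libraries for 4 of the 10 genes, against 11.5% of all genes tested. Dcn, the matrix proteoglycan decorin, had the smallest p of the pathway. It was at 13.9, 20.6 and 23.3 CPM with vehicle and at 53.8 and 47.3 CPM with UMBO, a log2 fold change of 1.39 (standard error 0.25, edgeR unadjusted p = 0.00142, adjusted p = 0.497). In contrast to most genes described here, Dcn was higher in UMBO replicate 1 than in UMBO replicate 2. Bgn, for the related proteoglycan biglycan, had a like pattern at a smaller size, at 33.5 and 32.0 CPM with UMBO against at most 26.7 CPM with vehicle (log2 fold change 0.45, edgeR unadjusted p = 0.0536). Tnc, for the matrix protein tenascin C, had 1.01 (unadjusted p = 0.0172). S100a8, a calgranulin of neutrophils and monocytes, had 2.38 (unadjusted p = 0.0356) and was at 1.60 CPM in UMBO replicate 2 and at or under 0.252 CPM in the other 4 libraries.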

How the data were processed

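Bulk RNA of 3 vehicle and 2 UMBO hemispheres was analysed, grouped by the deposited labels (the study's methods give 3 mice per group). The authors mapped reads to GRCm38 with STAR 2.7.2a and deposited raw counts per Ensembl gene, without normalization. The annotation release and the use of strand in counting are not given in the sources used here. Symbols were found in GENCODE M21 for 55480 of 55573 genes, and those without took at most 0.00173% of a library's counts. Total counts were 59736771 to 86164159, so among the members counting error was small except for Tlr5 and Tlr8. Other genes near 0 CPM in several libraries, such as Il6, S100a8 and Tlr11, also rest on few counts. The number of mice limits the precision. Every pair of libraries differed by more than sampling noise (chi-square per gene 52.2 or more).

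Counts were scaled by TMM and filtered with filterByExpr, and 23592 genes were fitted with edgeR 4.0.16's quasi-likelihood test in R 4.3.3, with Benjamini-Hochberg adjustment over all of them and a threshold of 0.05. CPM are TMM-scaled counts at a common library size, and log2 levels used a prior count of 2. Single values were compared with 2-sided exact permutation tests over the 10 groupings of the libraries (smallest p 0.1). Fits were tested on simulated data that varied less between libraries than the real data, so that test does not show how the fits behave here. Alternatives were DESeq2 1.42.0, other scalings, filters and prior counts, a replicate block, other panels and each library left out (for the pathway lists, chosen after seeing the data). All members were named, with every TIR adaptor and the 4 genes of smallest p per pathway list. The closest 3 profiles per member were also named. The members, lists and panel were chosen with earlier results of these data known, and the motifs after the windows had been seen. RefSeq windows were searched by letters alone.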

Additional observations from a re-analysis of the deposited data

How the results depend on the processing

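The count of members past an adjusted p of 0.05 in edgeR was 0 with all scalings and filters, 1 (Tlr2) with the DESeq2 Wald test, and 0 to 4 with each library left out, with 4 only without UMBO replicate 1. Members with an unadjusted p under 0.05 numbered 2 (without UMBO replicate 2) to 6 with each library left out, against 5, and were 3 without vehicle replicate 1 and 3 without vehicle replicate 3. Of all genes tested, 1.15% had such a p and were higher without UMBO replicate 2, and 21.4% without UMBO replicate 1, where 6 members had one. The median log2 fold change was 1.19 with a CPM of at least 1 in 2 libraries, a filter that drops Tlr5 and Tlr8. Library size alone moved the median of all genes from 0.01 to 0.13 and the split of genes with an unadjusted p under 0.05 from 1251 higher and 487 lower to 1502 and 395. Over the whole table, adjusted calls numbered 0 in edgeR, 40 with the DESeq2 Wald test and 4543 without UMBO replicate 1.

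With the replicate block 5 members, all higher, passed the adjusted p of 0.05 in edgeR (Tlr1, Tlr2, Tlr6, Tlr7 and Tlr13). Of the 23592 genes tested 2337 passed it, 1428 of them higher. The log2 fold change turned positive for Tlr5 (0.017) and Tlr8 (0.19). Only 2 replicate numbers are shared between the groups. Across genes, the deviations of same-numbered libraries from their group means had correlations of 0.453 and 0.760. With 2 UMBO libraries, the deviations of 1 mirror those of the other, so the 2 correlations are not separate evidence. Nothing in the sources says that a number marks a shared litter or day, so the numbers do not establish pairs. Of the 108 log2 fold changes of members under an alternative, 92 kept their side and direction, 10 passed the threshold and 6 changed sign. The sign also turned for Tlr5 without vehicle replicate 3 (0.14) or UMBO replicate 2 (0.32) and for Tlr8 without vehicle replicate 2 (0.017) or 3 (0.10). Relative to the panel it turned for Tlr4 (0.022), Tlr6 (0.66), Tlr7 (0.46) and Tlr13 (0.62) with the microglia markers, and for Tlr6 (0.073), Tlr7 (0.14) and Tlr13 (0.022) without UMBO replicate 2, as did the log2 ratio of Tlr4 over Ly96 (0.051). Across the fits with 1 library left out, the range was -1.38 to 0.32 for Tlr5 and -0.47 to 0.10 for Tlr8. Relative to the panel it was -0.32 to 0.073 for Tlr6, -0.79 to 0.14 for Tlr7 and -0.35 to 0.022 for Tlr13, and for Tlr4 over Ly96 it was -0.35 to 0.051. Apart from fits with fewer libraries or genes, the cause of these changes was not tested.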

Other observations

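Over the 5 libraries, the genes whose log2 profile lay closest to that of a member (smallest root mean square difference, over all genes tested) included several of myeloid cells. Cd300c2, Slamf9 and Igsf6 were closest to Tlr1, and Ncf1 and Laptm5 to Tlr6, with Ncf1 at a difference of 0.039. Ncf1 encodes a subunit of the phagocyte oxidase, and Laptm5 is also in the myeloid panel. Tlr6 had Gm38365 as its other neighbor. Tlr13 was closest to Piwil4, Osmr and Cd53. For Tlr2 the closest genes were Procr, the receptor of protein C, then Bach2os and Sucnr1, the succinate receptor, at differences of 0.11 to 0.14. Sucnr1 was under 0.5 CPM in every library, and Bach2os is a long noncoding RNA gene.

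The other members had neighbors of mixed kinds. Tlr4 lay closest to Cnpy4, Szrd1 and Fuca1, Tlr3 to Rnaset2a, Pdlim5 and Thsd1, and Tlr7 to 5830408C22Rik, Bfsp2 and Spidr. Tlr9 lay closest to Kpna2-ps, A930001A20Rik and Gm17087. The neighbors of the rarest members, Gm29771, Birc7 and AC169509.1 for Tlr5 and Pitx3, Chodl and Uts2r for Tlr8, rest on few counts. With 5 libraries and 23592 genes some profile lies close to every member, so these names are a description.

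Of the remaining mouse receptors, Tlr12 was at 1.14, 3.28 and 1.83 CPM with vehicle and at 2.23 and 5.45 CPM with UMBO (log2 fold change 0.88, edgeR unadjusted p = 0.175). Tlr11 was at 0.067, 0.18 and 0.28 CPM with vehicle and at 0.058 and 0.14 CPM with UMBO (log2 fold change -0.88, edgeR unadjusted p = 0.291).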
